A study of Mus musculus with 4 samples.

Results

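Lyz1, Mmp7, Itln1, Ang4, Mptx2, Habp2 and Nupr1 are non-defensin genes of the Paneth cell that had been named as shared with goblet cells. They were taken by symbol, 7 of the 28694 genes counted, and every library's table lists all 7, although Habp2 had no UMI in the kept cells of DC 2. The study sorted mouse intestinal epithelial cells for single-cell RNA sequencing, with the distal colon (DC, 2 libraries) set against small intestine from its 8th section (Si8, 2 libraries). Both groups came from RedMUC298trTg mice 6 to 8 weeks old, with no further treatment given, and the cells are labelled as goblet cells. Epithelium was released with EDTA and DTT and digested with collagenase and DNase, and living cells were sorted on the mCherry signal of the strain, with a C57Bl6 mouse as the negative control. The promoter of the reporter, the number of mice behind a library and whether only mCherry-positive cells were loaded are not given in the sources used here. Nothing states that the 2 libraries of a tissue are separate animals, so p-values between tissues measure the spread between libraries, which may be technical. Where cells of the same libraries are compared, library is a block. Those p-values measure how far the difference varied from library to library, which may be technical too.

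Paneth cells sit at the base of small intestinal crypts and pour antimicrobial proteins into the crypt lumen; goblet cells line crypts and villi and secrete the mucin Muc2. Lyz1 encodes the secreted lysozyme that cleaves bacterial cell walls, and Mmp7 encodes matrilysin, the metalloprotease that cuts mouse alpha-defensin precursors into active peptides. Itln1 encodes the lectin intelectin 1, Ang4 a secreted ribonuclease with antimicrobial activity, and Mptx2 a pentraxin. Habp2 encodes a serine protease best known as a liver plasma protein, and Nupr1 encodes a small nuclear protein induced by stress. A colon of a healthy mouse is held to lack Paneth cells.

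Cells were classed by their unique molecular identifiers (UMIs), given as CPM, the UMIs of a gene scaled to 1000000 UMIs in the cell. A Lyz1/Defa24-high cell had at least 5000 CPM of both Lyz1 and Defa24, an alpha-defensin gene. A Muc2-high cell had at least 2000 CPM of Muc2 and was not in the first class, and the rest were called other cells. The DC libraries held 0 Lyz1/Defa24-high cells among 1831 and 4724 kept cells, while the Si8 libraries held 26 of 1491 and 53 of 2197. Muc2-high cells numbered 1168 and 3131 in DC against 1354 and 1669 in Si8, and other cells 663 and 1593 in DC against 111 and 475 in Si8. The libraries held 26075303 to 66880457 UMIs, with a median of 12288 to 21037 per kept cell, and each pair of libraries shared between 1 and 16 barcodes. Lyz1/Defa24-high cells had median depths of 19497 UMIs in Si8 1 and 82386 in Si8 2, and 13 and 16 of them also passed the Muc2 threshold. As a check of the goblet label, 20 goblet marker genes made up 8.77% and 7.73% of the UMIs of Muc2-high cells in DC and 24.98% and 20.8% in Si8, beside 3.36% and 2.62% of those of other cells in DC and 2.28% and 1.80% in Si8. Muc2, which cut these classes, is one of the 20, and none of the 20 was at 0 in any class. The cells of the first class rest on 2 genes, so Lyz1 and Defa24 are given for them as a description, and the Lyz1 level of the other 2 classes lacks the cells that this rule removed.

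Mptx2 and Lyz1 each have a close relative on the same chromosome, and the upstream sequences of both pairs are shown because the levels of each pair are set side by side in the results. Each is the stretch of 250 bases before the annotated RefSeq start (GRCm38.p6), read 5′ to 3′ on the strand of the gene. Capitals mark bases that differ from the aligned base of the partner or face a gap inside the alignment. Bases beyond the ends of the alignment, as at the start of Mptx1 and of Lyz2, have no partner and stay in lower case. Mptx2 (chr1:173277757-173278006, minus strand) and Mptx1 (chr1:174330268-174330517, plus strand) were 88.8% identical over 278 aligned bases, with the 5′ ends of these stretches 1052262 bases apart. Lyz1 (chr10:117292869-117293118, minus strand) and Lyz2 (chr10:117282273-117282522, minus strand) were 83.6% identical over 298 aligned bases, with starts 10596 bases apart. These identities include the first 50 bases after the start.
Mptx2: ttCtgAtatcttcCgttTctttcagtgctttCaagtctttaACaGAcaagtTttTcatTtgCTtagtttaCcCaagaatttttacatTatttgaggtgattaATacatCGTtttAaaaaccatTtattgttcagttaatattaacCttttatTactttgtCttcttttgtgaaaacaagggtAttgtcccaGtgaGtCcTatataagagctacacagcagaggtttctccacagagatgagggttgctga
Mptx1: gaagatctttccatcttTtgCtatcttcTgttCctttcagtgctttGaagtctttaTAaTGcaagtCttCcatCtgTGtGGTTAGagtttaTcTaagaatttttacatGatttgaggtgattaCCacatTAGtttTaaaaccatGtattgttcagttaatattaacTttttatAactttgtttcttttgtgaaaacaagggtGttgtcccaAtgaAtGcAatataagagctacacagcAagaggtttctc
Lyz1: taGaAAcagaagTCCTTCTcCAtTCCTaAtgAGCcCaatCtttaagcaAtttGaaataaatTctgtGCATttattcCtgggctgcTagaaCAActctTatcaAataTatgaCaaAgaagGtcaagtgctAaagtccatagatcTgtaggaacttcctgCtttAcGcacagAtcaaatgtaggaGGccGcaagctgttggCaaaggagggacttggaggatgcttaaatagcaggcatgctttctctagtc
Lyz2: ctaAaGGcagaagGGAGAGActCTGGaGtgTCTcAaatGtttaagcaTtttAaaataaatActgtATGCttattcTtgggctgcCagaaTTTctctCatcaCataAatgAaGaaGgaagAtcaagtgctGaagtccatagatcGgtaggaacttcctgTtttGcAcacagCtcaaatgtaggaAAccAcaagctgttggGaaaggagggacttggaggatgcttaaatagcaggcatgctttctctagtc

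In GENCODE M21 (GRCm38), which gave coordinates for 99.0% of the gene identifiers, Lyz1 spans chr10:117287797-117292868, Mmp7 chr9:7692090-7699585 and Itln1 chr1:171518122-171535294. Ang4 spans chr14:51763878-51773590, Mptx2 chr1:173274382-173277777, Habp2 chr19:56287137-56320822 and Nupr1 chr7:126623249-126630861. All 7 are protein-coding. The counts come from the 3′ ends of transcripts, and how the authors' counting treated reads that match near-identical copies was not examined. The values of Lyz1 and Lyz2, of Mptx1 and Mptx2 and of the Ang and alpha-defensin families are uncertain to that extent.

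The Lyz1/Defa24-high cells of Si8 carried the highest level of each of the 7 genes among the 3 classes of that tissue, in both libraries. Lyz1 stood at 34274 CPM in Si8 1 and 43318 CPM in Si8 2, and Defa24, by which the class was also chosen, at 172981 and 182817 CPM. Itln1 reached 19351 and 21561 CPM, against 460 and 528 CPM in Muc2-high cells. Those 2 sets of values are far apart, and Itln1 rose by 7.17 on the log2 scale (SE 0.39, adjusted p = 6.55e-06, edgeR quasi-likelihood test with Benjamini-Hochberg adjustment, 2 libraries). Ang4 stood at 5222 and 9257 CPM in Lyz1/Defa24-high cells, against 86.2 and 208 CPM in Muc2-high cells (log2 fold change 7.44, SE 0.46, adjusted p = 1.52e-05). Mptx2 showed the widest gap, with 2935 and 9336 CPM in Lyz1/Defa24-high cells against 2.26 and 24.2 CPM in Muc2-high cells (log2 fold change 11.14, SE 0.36, adjusted p = 1.96e-07). The rest of the genes were closer together in level between the 2 classes.

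Mmp7 had 2412 and 1446 CPM in Lyz1/Defa24-high cells, against 636 and 455 CPM in Muc2-high cells (log2 fold change 3.57, SE 0.28, adjusted p = 9.40e-05). Habp2 was a rare transcript, at 42.9 and 40.9 CPM in Lyz1/Defa24-high cells (53 and 182 UMIs), against 1.75 and 2.79 CPM in Muc2-high cells (38 and 99 UMIs), and rose by 5.98 on the log2 scale (SE 0.25, adjusted p = 3.79e-06). Nupr1 differed least, with 834 and 641 CPM in Lyz1/Defa24-high cells against 634 and 261 CPM in Muc2-high cells (log2 fold change 2.67, SE 0.34, adjusted p = 0.00200). So the 6 genes that had not chosen the cells all passed, where 6.55% of the 12508 genes tested passed in either direction, 3.41% as higher and 3.13% as lower. In the same contrast all 22 tested alpha-defensin genes rose, with a median of 10.91 on the log2 scale against -0.06 over all genes tested. Alpha-defensin genes made up 63.0% and 70.4% of the UMIs of these cells, and TMM factors of 0.378 and 0.255 rescaled what was left. With library totals alone the median over all genes was -1.92, Mmp7 rose by 1.78, Itln1 by 5.37 and Nupr1 by 0.88, and all 6 still passed. With every cell thinned to 2000 UMIs, Nupr1 alone among the 6 did not pass (1.03, adjusted p = 0.0946).

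**Figure D1:**
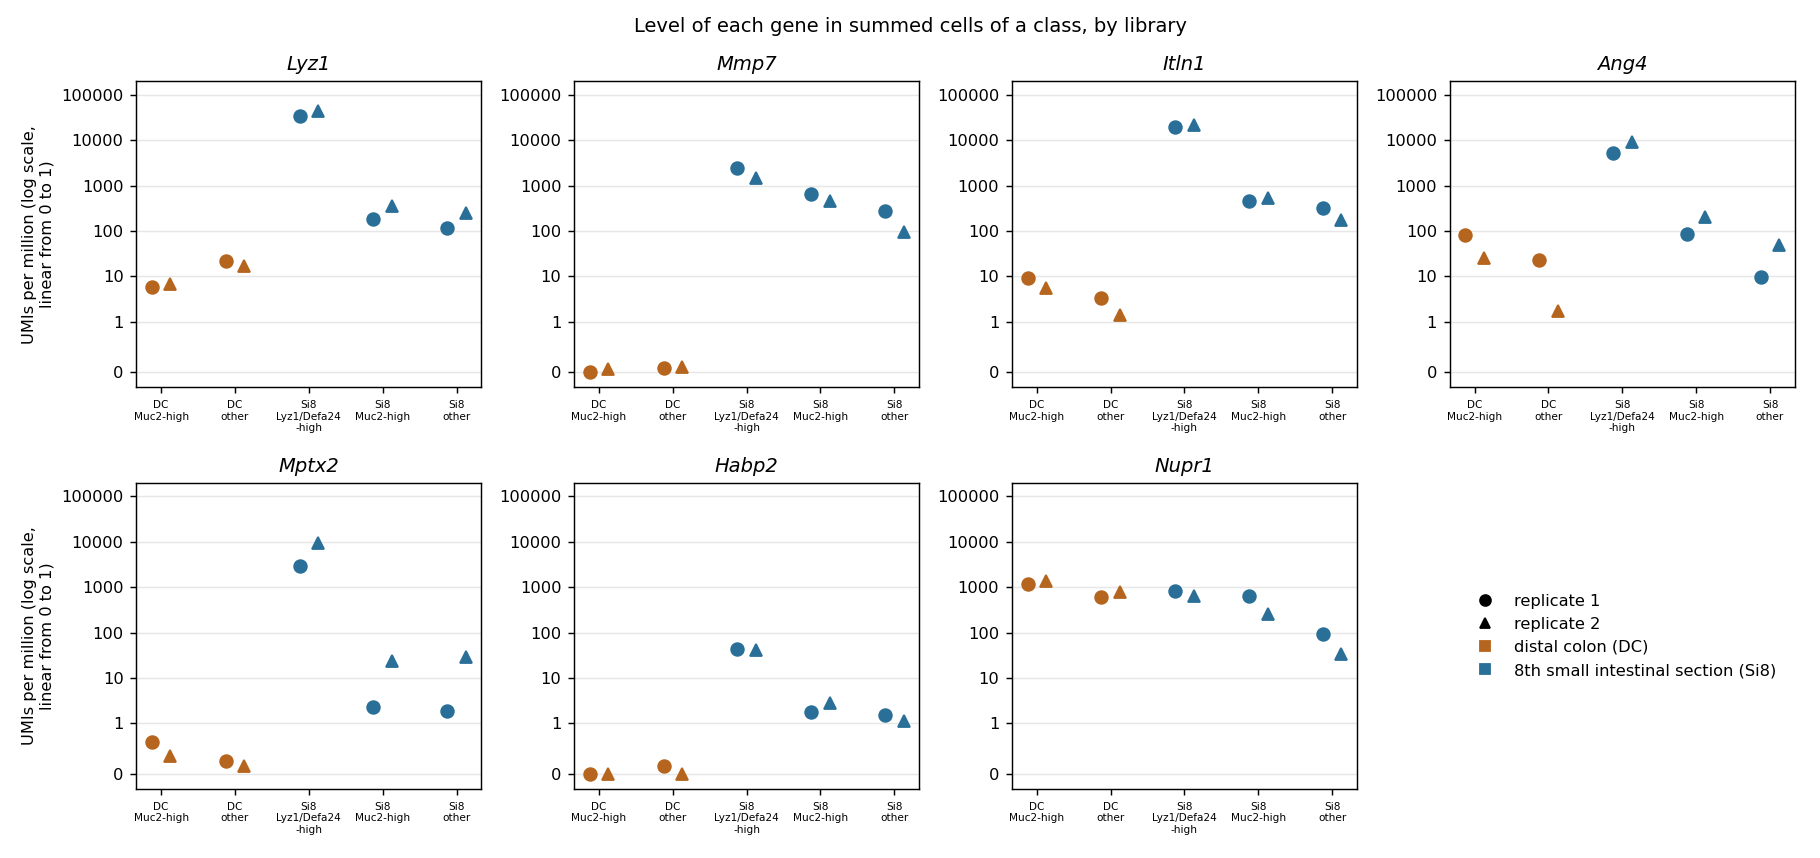
Level of each of the 7 genes in each library and cell class, as CPM on a log axis that is linear below 1, with 1 point per library. Lyz1/Defa24-high cells exist in Si8 alone; Mmp7 and Habp2 lie at or near 0 in DC, and Nupr1 is the gene whose DC points, 1207 and 1350 CPM in Muc2-high cells, lie above the Si8 points, 634 and 261 CPM.

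How much of a gene's Si8 RNA came from the Lyz1/Defa24-high cells split the 7 genes. These cells held 4.84% and 8.52% of all Si8 UMIs. They held 90.7% and 92.6% of the Lyz1 UMIs and 98.5% and 97.1% of the Mptx2 UMIs. For Lyz1 this share follows in part from the rule of the class, and 13 and 16 of these cells also passed the Muc2 threshold. Mptx2 was not used to cut the classes, but the rule also placed the cells that passed the Muc2 threshold in the first class. Those cells held 2591 Mptx2 UMIs over both libraries, beside 908 in Muc2-high cells. The Lyz1/Defa24-high cells below the Muc2 threshold held 42582. Lyz1/Defa24-high cells also held 77.3% and 83.8% of Ang4 UMIs and 68.9% and 82.1% of Itln1 UMIs. Habp2 was split more evenly, with 55.8% and 61.7% in Lyz1/Defa24-high cells and 40.0% and 33.6% in Muc2-high cells. Most Mmp7 UMIs (78.8% and 68.0%) and most Nupr1 UMIs (91.6% and 73.9%) lay in Muc2-high cells. That class held 85.0% and 67.9% of all Si8 UMIs. The Mmp7 share was thus below that of all UMIs in Si8 1 and near it in Si8 2. The Nupr1 share was above it in both libraries, and the Habp2 share below it.

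The Lyz1/Defa24-high cells were themselves mixed. By the share of their UMIs from alpha-defensin genes, 10 and 8 cells of the 2 Si8 libraries had under 10%, 5 and 8 had 10 to 50%, and 11 and 37 had 50% or more; these bins were set after seeing the data and carry no test. Alpha-defensin UMIs count in the total behind CPM and made up 77.5% and 74.3% of UMIs at the top, 32.7% and 38.7% in the middle and 2.39% and 4.82% at the bottom. Levels that fall towards the top are therefore also given per UMI from other genes, a scale chosen after seeing the data. Mptx2 went with the defensin-rich end, at 0 and 78.7 CPM under 10%, 830 and 1155 CPM in the middle bin and 3714 and 10068 CPM at 50% or more. Ang4 had 208 and 249 CPM under 10%, 351 and 1417 CPM in the middle bin and 6711 and 9964 CPM at the top. Both libraries gave the same order for these genes, with the lowest level in the cells poorest in defensin. Defa21, a defensin gene that was not used to choose cells, had 23.8 and 951 CPM under 10% and 67314 and 79876 CPM at 50% or more. Muc2 had 4748 and 8320 CPM under 10% and 972 and 1286 CPM at the top, which is 4865 and 8741 against 4323 and 5013 CPM when alpha-defensin UMIs are left out of the total.

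Lyz1 itself stood at 9426 and 8011 CPM in the cells under 10% alpha-defensin, 27182 and 22553 CPM in the middle bin and 39551 and 45615 CPM in the richest. Itln1 was already at 2621 and 8753 CPM under 10%, and at 26832 and 18220 CPM in the middle bin and 21396 and 22196 CPM at the top. Without alpha-defensin UMIs in the total, Itln1 had 39851 and 29736 CPM in the middle bin and 95144 and 86521 CPM at the top. For Mmp7 and Habp2 the order of the bins rested on the total used. Mmp7 had 3435 and 2388 CPM under 10%, 5570 and 3465 CPM in the middle bin and 1842 and 1315 CPM at 50% or more. Without alpha-defensin UMIs in the total it had 3519 and 2509, 8273 and 5656, and 8192 and 5125 CPM in the same bins, so that the middle and the top were close. Habp2 had 17.8 and 26.2 CPM under 10%, 103 and 66.7 CPM in the middle bin and 40.0 and 40.2 CPM at the top, on 3 to 165 UMIs a bin. Without alpha-defensin UMIs its order turned, with 152 and 109 CPM in the middle bin and 178 and 157 CPM at the top. Nupr1 had 368 and 472 CPM under 10%, 992 and 827 CPM in the middle bin and 897 and 638 CPM at the top. Without alpha-defensin UMIs Nupr1 was highest at the top, with 378 and 496, 1474 and 1349, and 3991 and 2488 CPM in the same bins. The 18 cells under 10% alpha-defensin thus carried Muc2, at 4748 and 8320 CPM beside 11258 and 9276 CPM in Muc2-high cells, together with Lyz1, Mmp7 and Itln1 and with little Mptx2 or Ang4. Cells near the thresholds were 3 and 10 just below and 3 and 2 just above, within 20% of the value.

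**Figure D2:**
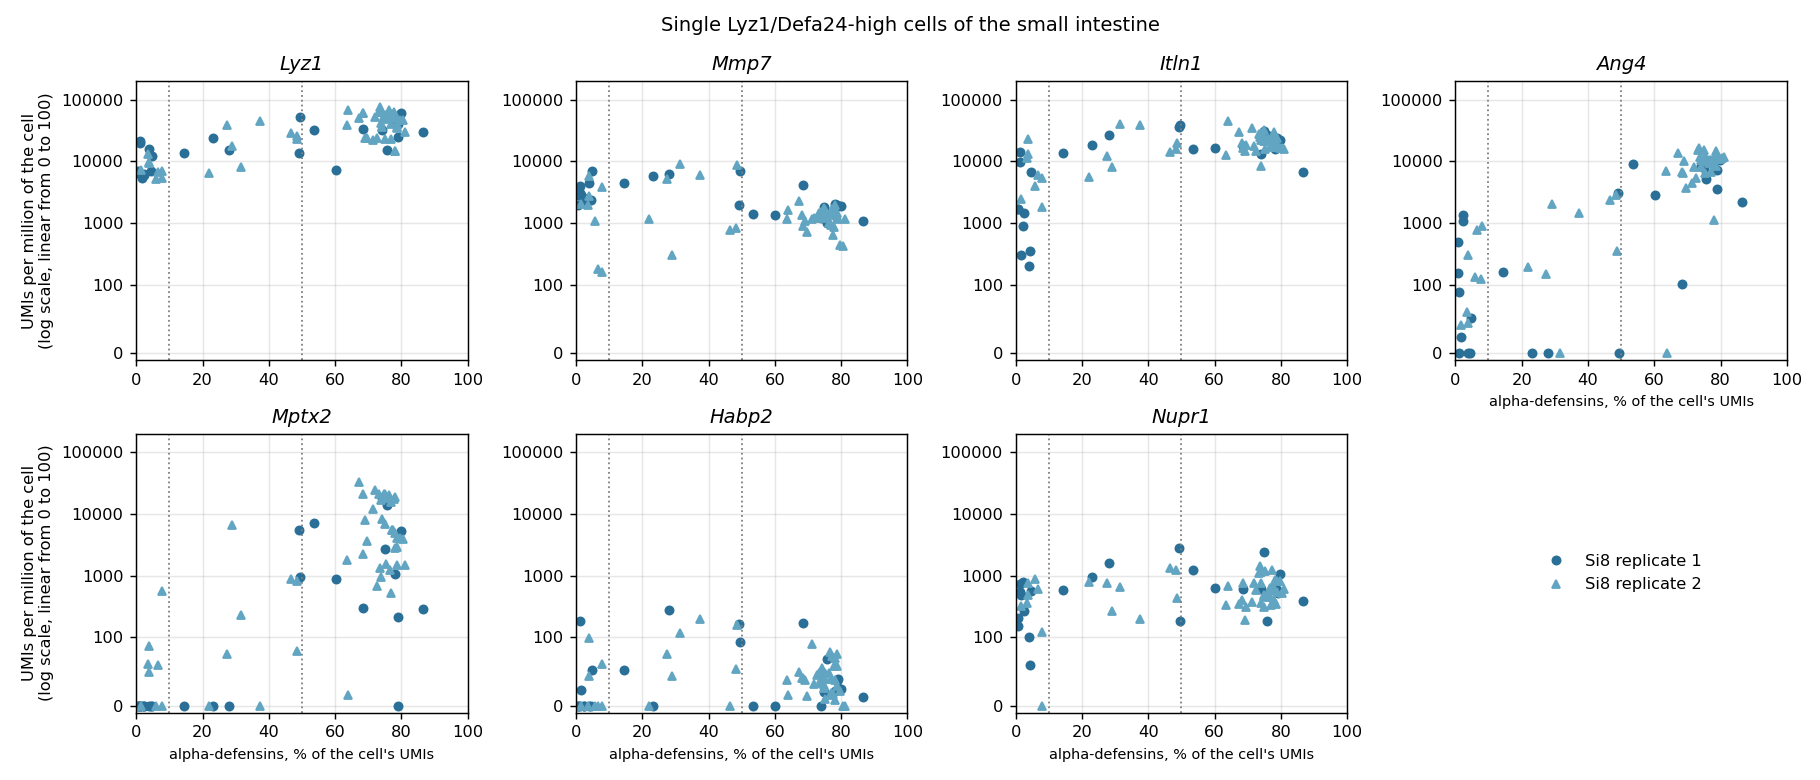
Each point is 1 Lyz1/Defa24-high cell of Si8, placed by the percentage of its UMIs from alpha-defensin genes (x axis) and by the CPM of the gene on a log axis that is linear below 100 (y axis). Mptx2 and Ang4 climb with the defensin share. The CPM of each cell counts its alpha-defensin UMIs, so levels on the right of each panel are lower than they would be per UMI of other genes.

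Outside the Lyz1/Defa24-high cells, 6 of the 7 genes were higher in Muc2-high cells than in other cells of Si8, against 42.9% of 12508 genes called in either direction, 23.2% called higher and 19.6% called lower. Mptx2 was the exception, at 2.26 and 24.2 CPM in Muc2-high cells and 1.93 and 29.7 CPM in other cells (log2 fold change 0.11, SE 0.30, adjusted p = 0.804). Its sign turned to -0.38 with library totals alone, and it passed where Defa24 alone defined the first class (0.77, adjusted p = 0.00196). Nupr1 showed the widest gap, with 634 and 261 CPM in Muc2-high cells against 91.7 and 33.9 CPM in other cells (log2 fold change 3.40, SE 0.35, adjusted p = 8.10e-05). Ang4 had 86.2 and 208 CPM in Muc2-high cells, against 9.63 and 50.1 CPM in other cells (log2 fold change 2.89, SE 0.41, adjusted p = 0.000447). The Si8 2 level of Ang4 in other cells lay below both Muc2-high levels, so the classes did not overlap. How often this held over all genes was not counted.

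Mmp7 had 636 and 455 CPM in Muc2-high cells, against 278 and 95.0 CPM in other cells (log2 fold change 2.20, SE 0.27, adjusted p = 0.000214). Itln1 had 460 and 528 CPM in Muc2-high cells, against 318 and 176 CPM in other cells (log2 fold change 1.52, adjusted p = 0.00347). Neither gene overlapped between the classes, but how often this held over all genes was not counted. Lyz1 had 185 and 349 CPM in Muc2-high cells, against 116 and 246 CPM in other cells, a pair of ranges that overlap between libraries although each library gave a higher Muc2-high level (log2 fold change 1.10, adjusted p = 0.00147). With library totals alone the median over all genes was -0.50 and Lyz1 did not pass (0.58, adjusted p = 0.184). Habp2 had 1.75 and 2.79 CPM in Muc2-high cells, against 1.54 and 1.13 CPM in other cells, where it rested on 4 and 14 UMIs (log2 fold change 1.52, adjusted p = 0.00932); the call was lost without Si8 2 (0.78, adjusted p = 0.480) and with library totals alone (0.97, adjusted p = 0.0639).

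Droplets can hold RNA that leaked from other cells, so the share of cells with a UMI was set beside that in absorptive comparison cells, the other cells above the median sum of a list of absorptive genes. They numbered 55 and 237 in Si8, with median depths of 23581 and 24596 UMIs against 17357 and 20235 in Muc2-high cells, and all cells were thinned to 2000 UMIs. For Mptx2 the thinned share was 0.222% and 4.97% of Muc2-high cells, against 0% and 2.95% of comparison cells, where 0 of 55 allows a share of up to 5.45%. Unthinned, it was 3.55% and 39.8% against 0% and 35.0%. The unthinned shares in Si8 2 have 95% exact binomial intervals, for counting error only, of 37.4% to 42.2% and 29.0% to 41.5%, which overlap. In Si8 2 the thinned share of Mptx2 was thus the higher in Muc2-high cells, while the unthinned intervals overlapped. In Si8 1 no order can be read, since the share that 0 of 55 allows lies above the 0.222% of Muc2-high cells. The part of free RNA in the Mptx2 level of Muc2-high cells was not tested. The ratio of Mptx2 to Defa21 was alike across classes in Si8 2. It was 125 UMIs per 1000 Defa21 UMIs in Lyz1/Defa24-high cells, 126 in Muc2-high cells and 111 in comparison cells. In Si8 1 it was 56.1 in Lyz1/Defa24-high cells (interval 54.3 to 58.0) and 80.1 in Muc2-high cells (58.6 to 107), on 49 Mptx2 UMIs in Muc2-high cells, and these intervals do not overlap. The comparison cells of Si8 1 had 0 Mptx2 UMIs. The ratio of Mptx2 to Defa24, a gene that chose the first class, was not alike across classes. Per 1000 Defa24 UMIs it was 51.1 in Lyz1/Defa24-high, 5.04 in Muc2-high and 15.6 in comparison cells of Si8 2. In Si8 1 it was 17.0 in Lyz1/Defa24-high cells and 0.480 in Muc2-high cells.

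For Lyz1 the thinned shares were also close, 19.9% and 40.1% of Muc2-high cells against 14.5% and 37.6% of comparison cells (58.1% and 98.4% against 61.8% and 98.7% unthinned). The part of free RNA in the Lyz1 level of Muc2-high cells was not tested. Mmp7 was clearly more frequent, with a UMI in 44.2% and 44.4% of thinned Muc2-high cells against 14.5% and 12.7% of comparison cells (75.6% and 85.4% against 50.9% and 49.4% unthinned). Nupr1 was found in 55.2% and 35.2% of thinned Muc2-high cells against 16.4% and 7.17% of comparison cells (84.0% and 89.0% against 65.5% and 53.2% unthinned). Both libraries gave a higher share in Muc2-high cells for these 2 genes.

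Itln1 was found in 28.7% and 40.1% of thinned Muc2-high cells against 12.7% and 23.6% of comparison cells (65.2% and 94.2% against 54.5% and 92.0% unthinned). Ang4 was found in 8.71% and 21.4% against 1.82% and 11.4% (26.9% and 67.9% against 21.8% and 57.4% unthinned). Both genes were thus found in comparison cells too and were more frequent in Muc2-high cells. Whether their UMIs in the comparison cells came from free RNA was not tested. Habp2 was rare in both sets, with 38 and 99 UMIs in Muc2-high cells and 2 and 10 UMIs in comparison cells. Its thinned shares were 0.369% and 0.659% against 0% and 0.422%, and 2.07% and 4.13% against 1.82% and 3.38% unthinned.

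Within the Muc2-high cells of Si8, 202 and 223 cells of the 2 libraries also had at least 5000 CPM of Defa24 without reaching the Lyz1 threshold, 242 and 692 had 1000 to 5000 CPM, and 910 and 754 had less. These bins were also set after seeing the data and are described without a test. Itln1, Mmp7, Habp2 and Lyz1 were higher at higher Defa24 in both libraries, and Mptx2 was not. The Lyz1 level of the highest bin lacks the cells that the rule of the first class removed. Itln1 had 146 and 211 CPM in the lowest bin, 371 and 385 CPM in the middle and 2116 and 2207 CPM in the highest. Mmp7 had 390 and 283 CPM in the lowest bin, 891 and 450 CPM in the middle and 1535 and 1136 CPM in the highest. Habp2 had 0.401 and 0.410 CPM in the lowest bin, on 6 and 7 UMIs, and 9.22 and 16.5 CPM in the highest, on 28 and 73 UMIs.

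Lyz1 had 101 and 247 CPM in the lowest Defa24 bin, 311 and 353 CPM in the middle and 449 and 734 CPM in the highest. Ang4 had 56.5 and 174 CPM in the lowest bin, 155 and 213 CPM in the middle and 149 and 321 CPM in the highest, and Nupr1 592 and 235 CPM in the lowest bin and 768 and 370 CPM in the highest. Mptx2 had 2.01 and 24.1 CPM in the lowest bin and 1.97 and 27.6 CPM in the highest. So Mptx2 was as low in Muc2-high cells rich in Defa24 as in those poor in it. Muc2 itself varied little, with 11164 and 8229 CPM in the lowest bin and 11708 and 10158 CPM in the highest. Defa21 was higher in the highest bin in both libraries, with 23.8 and 182 CPM in the lowest bin and 46.4 and 230 CPM in the highest.

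**Figure D3:**
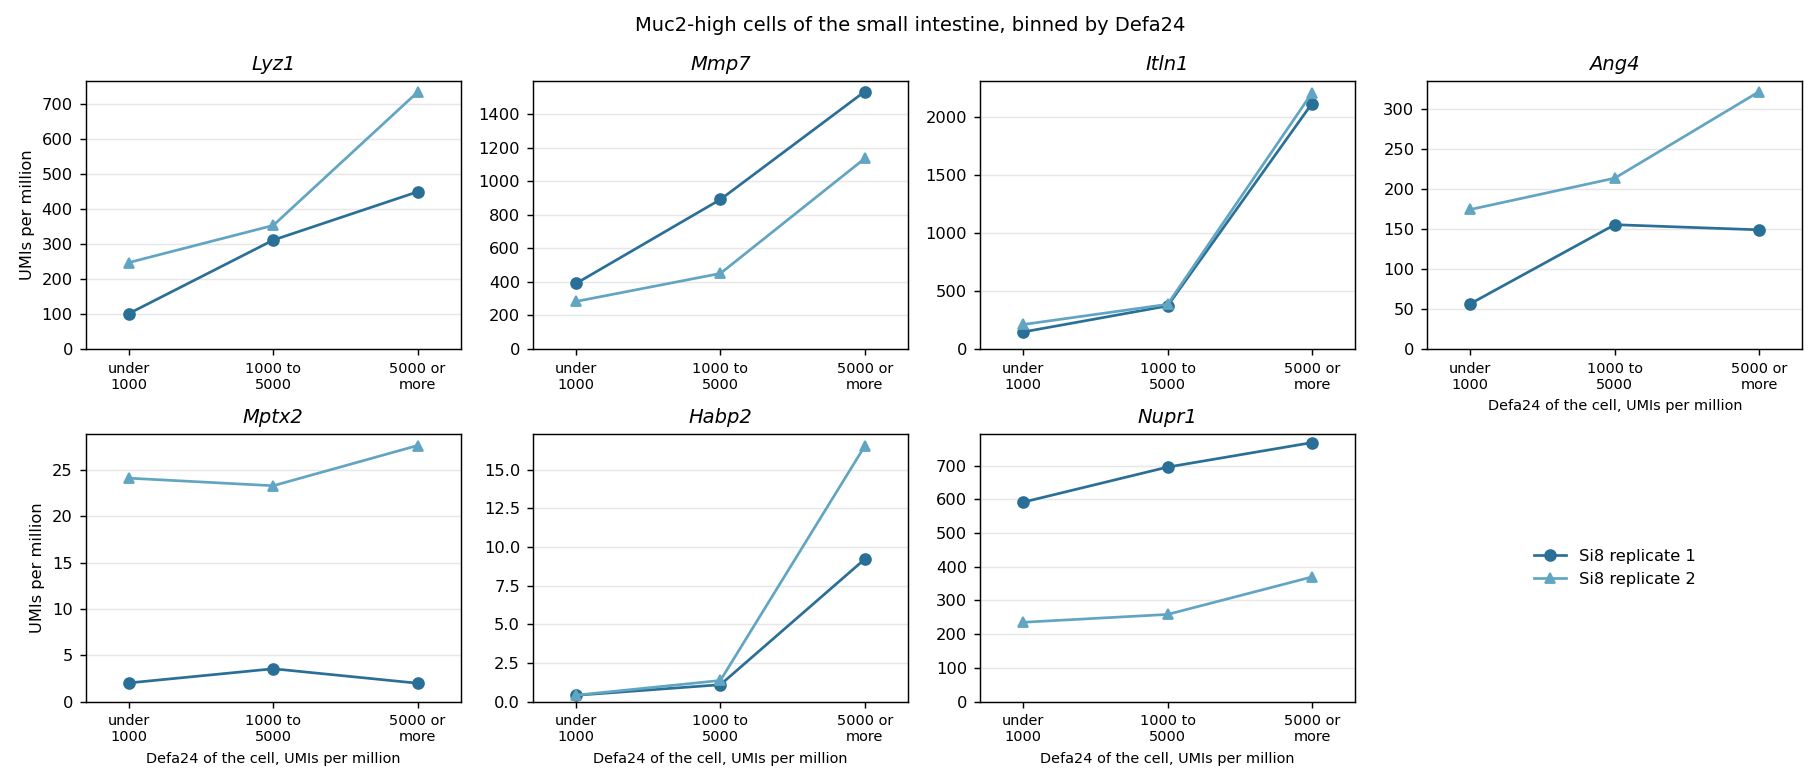
Level of each gene, in CPM on a linear axis that starts at 0, in Muc2-high cells of the Si8 libraries split by the Defa24 level of the cell, with 1 point per library. Itln1, Mmp7 and Habp2 climb from the lowest to the highest bin in both libraries, and Mptx2 stays level.

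In the distal colon the same classes gave another picture, because Mmp7 and Habp2 were all but missing. Mmp7 had 0 and 2 UMIs in Muc2-high cells and 1 and 3 UMIs in other cells. Habp2 had 0 UMIs in Muc2-high cells of both libraries, which allows up to 0.257% and 0.0958% of cells with a UMI, and 2 and 0 UMIs in other cells. No fold between classes is given for these genes in DC. Of the other 5 genes 4 passed the test between Muc2-high and other cells, 3 as higher and 1 as lower, where 21.7% of the genes passed in either direction, 12.2% as higher and 9.49% as lower.

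Lyz1 was lower in Muc2-high cells of DC, at 5.76 and 6.82 CPM against 22.2 and 16.5 CPM in other cells (log2 fold change -1.40, SE 0.21, adjusted p = 0.00226). The classes did not overlap, but how often this held over all genes was not counted. The call was lost without DC 1 (-1.13, adjusted p = 0.0600) and with the Muc2 threshold halved (-0.80, adjusted p = 0.133). This order was opposite to that in Si8, and the difference between the tissues passed its own test (-2.50, adjusted p = 0.00121). Few cells carried the DC transcripts. In DC 1, 6 cells with at least 10 Lyz1 UMIs held 218 of 348 UMIs, and in DC 2, 13 such cells held 459 of 688. The highest had 73 and 156 Lyz1 UMIs, were classed as other cells with 12 and 10 Muc2 UMIs, and carried 406 and 413 UMIs of Spink4, a trypsin inhibitor gene of secretory cells. Those 2 cells had 0 and 1 UMI of Lyz2, the lysozyme gene of myeloid cells, which was not where the Lyz1 of DC lay: the 5 cells of DC 2 with at least 10 Lyz2 UMIs held 2 Lyz1 UMIs.

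Ang4 was higher in Muc2-high cells of DC, at 82.7 and 25.5 CPM against 23.2 and 1.73 CPM in other cells (log2 fold change 2.86, SE 0.41, adjusted p = 0.00180). It was also uneven from cell to cell, since the top 1% of Muc2-high cells held 54.8% and 82.4% of its UMIs, with up to 98 and 153 UMIs in a cell. Nupr1, by contrast, was spread over the class, with 4.77% and 4.27% of its UMIs in the top 1% of cells. Nupr1 had 1207 and 1350 CPM in Muc2-high cells, against 613 and 794 CPM in other cells (log2 fold change 1.05, SE 0.31, adjusted p = 0.0411), a call that was lost without DC 1 (0.91, adjusted p = 0.157), without DC 2 (1.16, adjusted p = 0.0811) and in DESeq2 (1.02, adjusted p = 0.0539). The Nupr1 difference was smaller than in Si8, and the difference between tissues passed its test (-2.35, adjusted p = 0.0127). In this test of the difference 9.55% of the genes passed in either direction, 1.84% as higher and 7.71% as lower, and Lyz1 and Nupr1 were the 2 members among them, of 5 with a value. Goblet markers moved with them, since 16 of the 20 tested and 6 of the 14 stress-response genes listed with Nupr1 were also lower by this test, with medians of -1.69 and -0.88 beside 0.00 over all genes; their part in the result was not tested.

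Itln1 had 9.35 and 5.62 CPM in Muc2-high cells of DC, against 3.42 and 1.39 CPM in other cells (log2 fold change 1.91, adjusted p = 0.0104), and lost its call without DC 2 (1.63, adjusted p = 0.0798). No cell held more than 4 Itln1 UMIs in either DC library. Mptx2 had 9 and 13 UMIs in Muc2-high cells and 3 and 4 UMIs in other cells, and the log2 fold change of 1.42 did not pass (adjusted p = 0.220). For Itln1, Ang4 and Mptx2 the difference between tissues did not pass (0.38, -0.03 and 1.30, adjusted p = 0.716, 1.00 and 0.385).

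The tissues themselves differed for 5 of the 7 genes in Muc2-high cells, all lower in DC, where 31.7% of 12592 genes passed in either direction and 15.8% as lower. Mmp7 had 2 UMIs in DC and 29918 in Si8, a pooled ratio of 13279-fold lower in DC (95% counting interval 3676 to 109653, adjusted p = 1.51e-05). Habp2 had 0 UMIs in DC against 137 in Si8, and with a floor of 3 counts over the group it was at least 40.5-fold lower in DC (adjusted p = 0.00104). These 2 genes were close to present or absent by tissue.

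Itln1 had 9.35 and 5.62 CPM in Muc2-high cells of DC, against 460 and 528 CPM in those of Si8 (log2 fold change -6.45, SE 0.29, adjusted p = 3.00e-05). Lyz1 had 5.76 and 6.82 CPM in DC, against 185 and 349 CPM in Si8 (log2 fold change -5.76, SE 0.33, adjusted p = 7.63e-05). Mptx2 had 0.633 and 0.356 CPM in DC, against 2.26 and 24.2 CPM in Si8 (log2 fold change -5.23, SE 1.14, adjusted p = 0.0138). The comparison cells of Si8 2 also carried Mptx2, and those of Si8 1 had 0 UMIs of it. Without DC 2 the call was lost (-4.72, adjusted p = 0.0821), and without Si8 2 the value shrank to -2.76 and still passed. Itln1, Lyz1 and Mptx2 did not overlap between tissues, but how often this held over all genes was not counted. In Si8 1 Mptx2 rested on 49 UMIs.

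Ang4 and Nupr1 did not pass in Muc2-high cells. Ang4 had 82.7 and 25.5 CPM in DC, against 86.2 and 208 CPM in Si8, so that DC 1 came within a few CPM of Si8 1 (log2 fold change -1.81, SE 0.58, adjusted p = 0.0538). It passed without DC 1 (-2.89, adjusted p = 0.00854) and without Si8 1 (-2.29, adjusted p = 0.000356), and in several other settings. Nupr1 had 1207 and 1350 CPM in DC, against 634 and 261 CPM in Si8, and was thus higher in both DC libraries (log2 fold change 1.12, SE 0.40, adjusted p = 0.0782). It passed without Si8 1 (1.96, adjusted p = 9.20e-06) and with library totals alone (1.52, adjusted p = 0.0249), where the median over all genes was 0.41. All 22 tested alpha-defensin genes fell in Muc2-high cells of DC, with a median of -11.74 on the log2 scale against 0.03 over all genes tested.

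Among other cells, Nupr1 was 613 and 794 CPM in DC against 91.7 and 33.9 CPM in Si8 (log2 fold change 3.52, SE 0.46, adjusted p = 0.00401). Of the 7 genes 6 passed there, Nupr1 as higher and 5 as lower, where 24.7% of 11920 genes passed in either direction, 13.9% as higher and 10.9% as lower. Lyz1 had 22.2 and 16.5 CPM in DC against 116 and 246 CPM in Si8 (log2 fold change -3.28, adjusted p = 0.00275), Itln1 3.42 and 1.39 CPM against 318 and 176 CPM (log2 fold change -6.82, adjusted p = 0.000569). Mmp7 had 4 UMIs in DC and 1894 in Si8, 1222-fold lower (interval 477 to 4490, adjusted p = 0.000624). Mptx2 had 7 UMIs in DC and 372 in Si8, 137-fold lower (65.9 to 344, adjusted p = 0.0125), and Habp2 had 2 and 18 UMIs, 23.2-fold lower (5.56 to 206, adjusted p = 0.0281, lost without DC 2 or without Si8 1). Ang4 had 23.2 and 1.73 CPM in DC against 9.63 and 50.1 CPM in Si8, which overlap (log2 fold change -1.56, adjusted p = 0.355). Its sign turned to 0.29 without Si8 2.

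Over all kept cells the Lyz1/Defa24-high cells of Si8 entered the sums, and 6 of the 7 genes fell in DC, where 24.9% of 13084 genes passed in either direction and 12% as lower. Lyz1 had 13.3 and 10.9 CPM in DC against 1828 and 3985 CPM in Si8 (log2 fold change -8.31, adjusted p = 0.000424), and Itln1 6.63 and 3.84 CPM against 1360 and 2236 CPM (log2 fold change -8.85, adjusted p = 0.000323). Ang4 had 55.4 and 15.5 CPM against 327 and 941 CPM (log2 fold change -4.57, adjusted p = 0.0113), and Mptx2 0.457 and 0.270 CPM against 144 and 819 CPM (log2 fold change -10.85, adjusted p = 0.00230). For Lyz1, Itln1, Ang4 and Mptx2 these sums differed far more between tissues than those of Muc2-high cells alone. Mmp7 had 6 UMIs in DC and 41224 in Si8 (7888-fold lower, interval 3624 to 21496, adjusted p = 0.000223), Habp2 2 and 390 UMIs (224-fold lower, interval 61.6 to 1855, adjusted p = 0.00177), and Nupr1 935 and 1116 CPM against 588 and 240 CPM (log2 fold change 0.88, adjusted p = 0.211). Nupr1 passed there without Si8 1 (1.75, adjusted p = 0.00122), with library totals alone (1.31, adjusted p = 0.0461) and without the filter on low counts (0.90, adjusted p = 0.0265).

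The position of a Muc2-high cell between crypt and surface was read from a list of 19 genes of surface and upper villus cells, whose UMIs were summed in each cell. The cells of each library were split by that sum into 3 sets of equal size, and the highest, called the surface set, was compared with the lowest, the crypt set. In Si8 the genes split. Mmp7 was lower in the surface set, at 152 and 170 CPM against 1059 and 654 CPM in the crypt set (log2 fold change -1.76, SE 0.20, adjusted p = 3.58e-05). Itln1 was lower too, at 136 and 233 CPM against 854 and 800 CPM (log2 fold change -1.60, SE 0.21, adjusted p = 5.86e-05). Habp2 had 0 and 1 UMIs in the surface set and 37 and 75 UMIs in the crypt set (adjusted p = 0.000117). So 3 of the 7 genes fell, where 24.4% of 11863 genes passed as lower. Their library values did not overlap between the sets, but how often this held over all genes was not counted. Where Defa24 alone defined the first class, Itln1 fell by 0.40 and did not pass (adjusted p = 0.0517).

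Nupr1 in Si8 had 669 and 234 CPM in the surface set against 587 and 212 CPM in the crypt set (log2 fold change 0.78, SE 0.15, adjusted p = 0.00130). Mptx2 had 1.91 and 25.8 CPM against 2.50 and 23.3 CPM, on 10 to 313 UMIs (log2 fold change 0.65, adjusted p = 0.0288). Both calls rest on the scaling, since with library totals alone the median over all genes was -0.62 and the changes were 0.17 and 0.04, neither passing. Lyz1 had 90.7 and 293 CPM in the surface set against 273 and 394 CPM in the crypt set (log2 fold change -0.38, adjusted p = 0.279), and Ang4 52.6 and 216 CPM against 114 and 195 CPM (log2 fold change 0.17, adjusted p = 0.667). Lyz1 passed with library totals alone (-0.99, adjusted p = 0.00932), and Ang4 turned to -0.44. In all, 5 of the 7 passed, 2 as higher and 3 as lower, where 50.1% of 11863 genes passed in either direction, 25.7% as higher and 24.4% as lower.

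In DC the gene that moved most between sets was Ang4, with 167 and 50.6 CPM in the surface set against 27.7 and 20.2 CPM in the crypt set (log2 fold change 2.09, SE 0.32, adjusted p = 0.000491). Nupr1 rose as well, to 1436 and 1736 CPM in the surface set against 964 and 976 CPM in the crypt set (log2 fold change 0.86, SE 0.15, adjusted p = 0.00159), but did not pass without DC 1 (0.97, adjusted p = 0.101) or without DC 2 (0.75, adjusted p = 0.237). Neither gene overlapped between the sets, but how often this held over all genes was not counted. Ang4 and Nupr1 were the 2 of the 5 genes with a value in DC that passed. Of all genes tested 23.2% passed in either direction, 13% as higher and 10.2% as lower. Itln1 had 7.76 and 5.43 CPM in the surface set against 10.5 and 4.24 CPM in the crypt set (log2 fold change 0.15, adjusted p = 0.785). Lyz1 had 9 and 87 UMIs against 58 and 106 UMIs (log2 fold change -0.42, adjusted p = 0.530), and passed without DC 2 (-1.93, adjusted p = 0.0197) and with the Muc2 threshold halved (-1.44, adjusted p = 0.0444). Mptx2 had 5 and 2 UMIs against 4 and 3 UMIs (log2 fold change 0.61, adjusted p = 0.595).

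The difference of the surface-minus-crypt change between tissues, a comparison added after seeing the data, passed for Itln1 (1.75, SE 0.38, adjusted p = 0.0167) and Ang4 (1.92, SE 0.43, adjusted p = 0.0185), where 9.04% of the genes passed in either direction, 4.93% as higher and 4.11% as lower. For Itln1 the call was lost without DC 2 (1.34, adjusted p = 0.252), with cells thinned to 2000 UMIs (2.34, adjusted p = 0.0915) and where Defa24 alone defined the first class, which left 0.54 (adjusted p = 0.265). For Ang4 it was lost in DESeq2 (1.95, adjusted p = 0.184). For Lyz1, Mptx2 and Nupr1 it did not pass (-0.04, -0.04 and 0.08, adjusted p = 0.988, 1.00 and 0.866). The change of Ang4 was thus the more upward in DC, and that of Itln1 the more downward in Si8. Mmp7 and Habp2 were too rare in DC for this comparison.

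**Figure D4:**
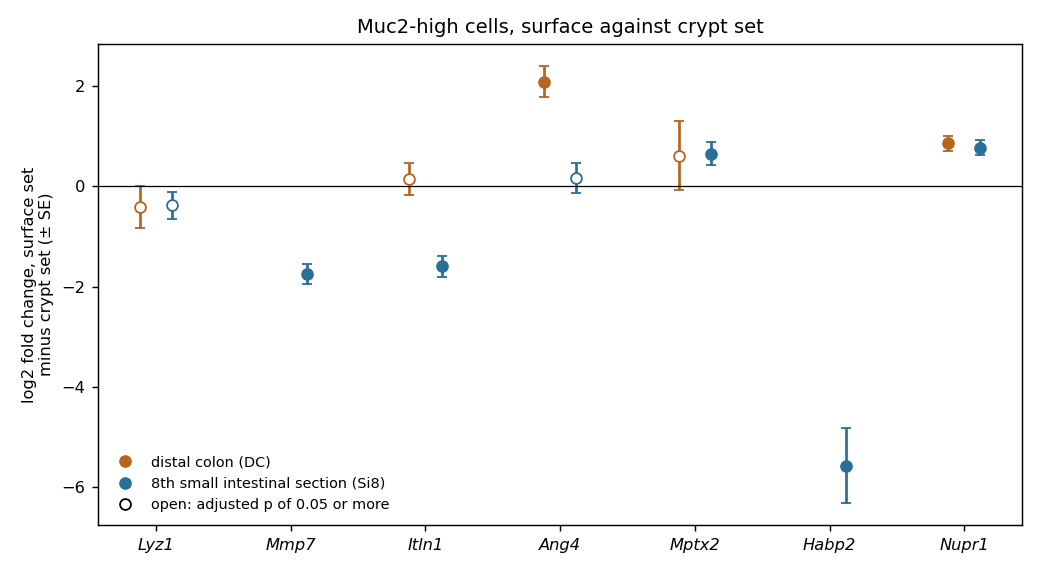
Log2 fold change of each gene between the surface and the crypt set of Muc2-high cells, DC beside Si8, with bars of 1 SE from the edgeR fit and open points where the adjusted p is 0.05 or more. Ang4 is highest, at 2.09 in DC; in Si8, Mmp7 and Itln1 lie at -1.76 and -1.60, and the fitted value of Habp2, lower still, depends on the prior count since its surface set held 1 UMI.

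Among relatives of the 7 genes, the pentraxins Mptx1 and Mptx2 led in different cells. Mptx1, the neighbour of Mptx2 whose upstream bases are shown above, had 37830 and 24526 CPM in Muc2-high cells of DC against 17.6 and 12.6 CPM in those of Si8 (log2 fold change 10.64, SE 0.47, adjusted p = 3.00e-05). In Lyz1/Defa24-high cells Mptx1 had 24.3 and 13.0 CPM, beside 2935 and 9336 CPM of Mptx2. So Mptx1 was the more abundant of the pair, as 3′ counts, in Muc2-high cells of DC, and Mptx2 in Lyz1/Defa24-high cells. In Muc2-high cells of Si8 the order differed by library, with 17.6 and 12.6 CPM of Mptx1 beside 2.26 and 24.2 CPM of Mptx2. Mptx1 was higher in Muc2-high than in other cells in both tissues, with log2 fold changes of 2.05 in DC (adjusted p = 8.57e-05) and 3.75 in Si8 (adjusted p = 6.26e-06).

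Lyz2 had 46.2 and 47.6 CPM in Lyz1/Defa24-high cells against 0.461 and 0.536 CPM in Muc2-high cells of Si8 (log2 fold change 8.36, SE 0.26, adjusted p = 6.45e-07), and reads of Lyz1 could be counted there. Ang, the angiogenin gene, and Rnase4 overlap on chromosome 14, so their counts cannot be told apart with certainty. Ang had 28.5 and 27.0 CPM in Muc2-high cells of DC against 106 and 96.8 CPM in those of Si8 (log2 fold change -2.25, adjusted p = 0.000130), and Rnase4 73.5 and 70.1 CPM against 257 and 209 CPM (log2 fold change -2.08, adjusted p = 0.000345). Both were lower in DC, beside a log2 fold change of -1.81 for Ang4 (adjusted p = 0.0538). Ang5 and Ang6 had at most 19 UMIs in any class and library. Mmp14 and Mmp15, membrane-bound relatives of Mmp7, had 17.9 and 25.2 CPM and 31.5 and 36.0 CPM in Muc2-high cells of DC, against 15.5 and 14.7 CPM and 28.5 and 23.2 CPM in Si8, and neither passed. Nupr1l, the relative of Nupr1, had 1.90 and 1.86 CPM in Muc2-high cells of DC against 0.231 and 0.451 CPM in Si8 (log2 fold change 2.02, adjusted p = 0.0124).

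**Figure D5:**
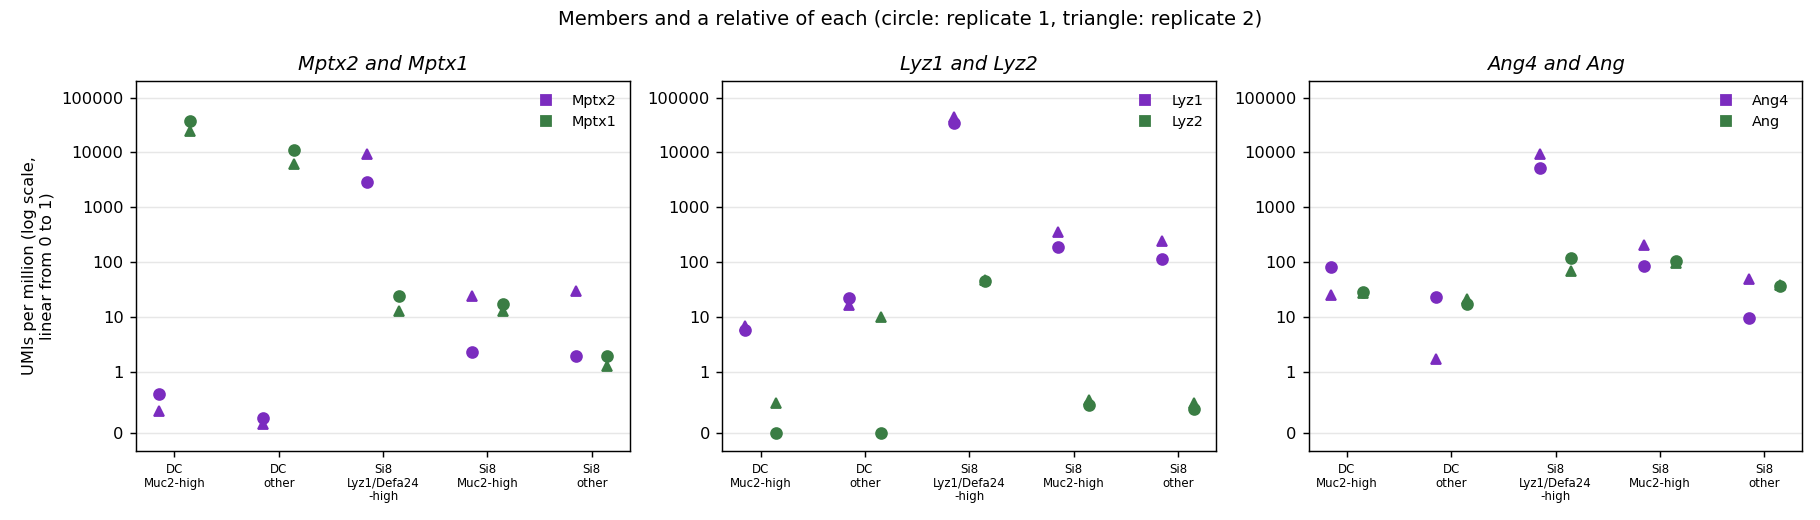
Levels of Mptx2, Lyz1 and Ang4 beside Mptx1, Lyz2 and Ang, in CPM on a log axis that is linear below 1, by cell class and library. Mptx1 lies at 24526 CPM and above in Muc2-high cells of DC where Mptx2 is below 1 CPM, and Mptx2 lies above Mptx1 in Lyz1/Defa24-high cells of Si8.

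The lists of other genes gave the setting. Of 26 tested Paneth genes outside the alpha-defensins and the members, 9 rose and 9 fell in Muc2-high cells of DC against Si8, led by Reg3b (-16.82), Reg3g (-15.69) and Reg3a (-11.86), which encode antibacterial lectins, and by Mptx1 (10.64). Of the 28 tested between Lyz1/Defa24-high and Muc2-high cells of Si8, 16 rose and 2 fell, led by the pancreatic lipase cofactor gene Clps (8.78) and the lipase relative Pnliprp2 (8.45). Of 20 goblet genes 5 rose and 10 fell in that contrast, with Clca1 (-2.37), Zg16 (-2.21) and Fcgbp (-1.93) at the low end. Medians over these lists were -0.13, 1.91 and -0.57, beside 0.03, -0.06 and -0.06 over all genes tested.

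A list of 14 genes of the stress response with which Nupr1 is known to be induced moved with Nupr1 in part. Of these 13 rose and 0 fell in Muc2-high against other cells of Si8, led by Chac1 (2.75), Creb3l4 (2.64), Trib3 (2.63) and Trp53inp1 (2.15), and 10 rose and 0 fell in DC. The medians were 1.48 and 0.60, beside 0.00 and 0.03 over all genes. Between surface and crypt sets 8 rose in DC, with Chac1 (1.73), Ddit3 (1.43) and Hspa5 (1.08) ahead, and 7 rose in Si8, with Trib3 (2.04) ahead. Between tissues in Muc2-high cells 3 rose and 3 fell, among them Trp53inp1 (3.44) as higher and Trib3 (-4.58), Chac1 (-3.82) and Asns (-2.00) as lower in DC.

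Alpha-defensin genes in Muc2-high against other cells of Si8 showed 5 rises and 0 falls among 22, near the 23.2% of all genes called higher, with a list median of 0.23. The 5 were led by Defa24 (1.81), Defa17 (1.36), Defa26 (1.35) and Defa3 (1.19). Between the surface and crypt sets of Si8, 6 rose and 5 fell among 22, near the 50.1% of all genes called, with a list median of 0.31. The largest changes were those of Defa17 (-2.75), Defa3 (-2.06), AY761184 (-1.44) and Defa26 (-1.35), all lower in the surface set. Over the 10 sums of UMIs by class and library, the levels of Mmp7 were nearest to those of Defa24 (Pearson r = 0.991 of log2(CPM + 1), among 6950 candidate genes), those of Itln1 to Defa17 (r = 0.990) and those of Habp2 to Defa26 (r = 0.993). Lyz1 was nearest to Tmed6 (r = 0.993), Mptx2 to Gm10104 (r = 0.995), Ang4 to Pnliprp2 (r = 0.922) and Nupr1 to Reep5 (r = 0.915). The sums share cells, libraries and depth, and their classes were cut by Lyz1, Defa24 and Muc2. These values are a description of the sums.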

How the data were processed

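For each library the authors deposited a matrix of unnormalized UMI counts by gene and barcode (10x single cell 3′ v2). It came from Cell Ranger 2.1.1 with mm10, per the submitters' processing notes, which do not name the annotation. Of 10827 barcodes, 10522 had 500 or more genes and no more than 20% of UMIs from mitochondrial genes. Scrublet in scanpy 1.11.5 marked 0.190% of them by its own threshold, so the highest scores were removed at 0.8% per 1000 cells, which took out 279 and left 10243. Cells were classed by thresholds on 3 genes, UMIs were summed per class and library, and the sums were tested with the edgeR 4.0.16 quasi-likelihood test (R 4.3.3, TMM, minimum count 10 in filterByExpr, calls at an adjusted p under 0.05 by Benjamini-Hochberg). Tissues were compared in fits of 4 libraries with 2 residual degrees of freedom, classes in 1 fit with library as a block (3), and the surface and crypt sets likewise (2). CPM are scaled to the total of the sum, and fold changes carry TMM factors. The text names the 7 members, relatives with 10 or more UMIs, up to 4 called genes of largest change per list, and the 3 genes most like each member, of which the first is given. Lists held 241 genes, 21 of them with no entry in the tables. The members and lists were chosen with earlier results of these data known. DESeq2 1.42.0 was an alternative. Scripts were tested on simulated data. Intervals are 95% and a floor is 3 counts.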

Additional observations from a re-analysis of the deposited data

Results flagged for a closer look

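Lyz1 was lower in Muc2-high than in other cells of DC (log2 fold change -1.40) and higher in those of Si8 (1.10), and the difference of -2.50 between the tissues passed its test (adjusted p = 0.00121, edgeR). Nupr1 was higher in Muc2-high cells of both tissues, by 1.05 in DC and 3.40 in Si8, with a difference of -2.35 (adjusted p = 0.0127). Between surface and crypt sets of Muc2-high cells, Itln1 changed by 0.15 in DC and -1.60 in Si8, with a difference of 1.75 (adjusted p = 0.0167). That difference was 0.54 and did not pass where Defa24 alone defined the first class (adjusted p = 0.265). Ang4 changed by 2.09 in DC and 0.17 in Si8, with a difference of 1.92 (adjusted p = 0.0185). What lies behind these differences was not tested.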

How the results depend on the processing

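Over the 10 comparisons, 928 of 1045 recomputed values of single genes kept their direction and their side of the threshold, 49 no longer passed, 28 newly passed and 40 changed sign; the causes were not tested except where an alternative used fewer UMIs or libraries by construction. Of the recomputed counts of all genes, 129 of 174 stayed within 1.5 times the value first given, and of the counts over the 7 genes 157 of 174. The depth limits Mptx2 and Itln1 in DC and Mptx2 in the Muc2-high cells of Si8, which rest on few UMIs. Only 2 libraries per tissue were sequenced, and the class thresholds and the surface and crypt sets divide a continuous range of cells. For brevity, the class contrast means Muc2-high minus other cells, the position contrast means surface minus crypt set, and a tissue difference of either is DC minus Si8.

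Leaving out 1 library in turn used fewer libraries by construction. The genes passing in DC minus Si8 then numbered 1411 to 4060 for all kept cells (3253 with all 4 libraries), 2092 to 4401 for Muc2-high cells (3994) and 955 to 2559 for other cells (2948). They numbered 705 to 1035 for Lyz1/Defa24-high minus Muc2-high cells (819). The class contrast gave 1045 to 4117 in DC (2712) and 4423 to 5008 in Si8 (5360), and its tissue difference 798 to 1681 (1194). The position contrast gave 1073 to 4627 in DC (2752) and 5302 to 5838 in Si8 (5945), and its tissue difference 308 to 2509 (1072). Of the 7 genes, 4 to 7 passed between tissues in Muc2-high cells, 5 to 6 in the class contrast of Si8, 2 to 5 in that of DC and 2 to 2 in its tissue difference. In the position contrast 1 to 2 passed in DC, 4 to 6 in Si8 and 1 to 2 in the tissue difference. The lowest counts between tissues came without DC 2 for all kept and Muc2-high cells and without Si8 2 for other cells.

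Some single genes changed sign when a library was left out. Ang4 in other cells was -4.31 to 0.29 between tissues, the positive value without Si8 2. In the tissue difference of the class contrast, Ang4 was -0.96 to 1.13, positive without DC 1 or Si8 1, and Itln1 -0.13 to 0.74, negative without Si8 1. In the position contrast of DC, Lyz1 was -1.93 to 0.16 and Mptx2 -0.13 to 1.06, both changed in sign without DC 1, and Itln1 was -0.27 to 0.49, negative without DC 2. In that of Si8, Lyz1 was -0.97 to 0.14, positive without Si8 1, and Ang4 -0.49 to 0.71, negative without Si8 2. In its tissue difference, Lyz1 was -1.53 to 0.63, positive without DC 1 or Si8 2. Mptx2 was -0.76 to 0.43 there, positive without DC 2 or Si8 2, and Nupr1 was -0.024 to 0.19, negative without DC 2. Calls that ended between tissues were Mptx2 in Muc2-high cells without DC 2 (adjusted p = 0.0821 by edgeR) and Habp2 in other cells without DC 2 (0.114) or Si8 1 (0.122). In the class contrast of Si8, Habp2 lost its call without Si8 2 (0.480).

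With library totals alone as scaling, 5171 genes passed between tissues for all kept cells, 9998 in Lyz1/Defa24-high minus Muc2-high cells and 2777 in the tissue difference of the position contrast. The median of all genes then moved to 0.447 between tissues for all kept cells and 0.406 for Muc2-high cells, to -1.92 for Lyz1/Defa24-high minus Muc2-high cells, and to -0.496 in Si8 and -0.137 in DC in the class contrast. It was -0.615 in Si8 and -0.129 in DC in the position contrast, and 0.325 and 0.502 in the tissue differences of the class and position contrasts. The share of calls that were higher became 80.6% against 51.9% with TMM for all kept cells, 78.8% against 50.2% for Muc2-high cells, and 1.27% against 52.1% for Lyz1/Defa24-high minus Muc2-high cells. In the class contrast it became 18.8% against 54.2% in Si8, 28.2% against 56.2% in DC and 64.7% against 19.3% in the tissue difference. In the position contrast it became 16.8% against 51.4% in Si8, 37.9% against 56.0% in DC and 93.2% against 54.6% in the tissue difference. Mptx2 turned to -0.38 in the class contrast of Si8, Ang4 to -0.44 in the position contrast of Si8 and to 0.35 in the tissue difference of the class contrast, and Lyz1 and Mptx2 each to 0.42 in that of the position contrast. With totals that leave out the alpha-defensin genes and Lyz1, the tissue differences counted 1857 genes for the class and 2829 for the position contrast. Mptx2 was then -0.37 in the class contrast of Si8, Ang4 -0.45 in the position contrast of Si8 and 0.30 in the tissue difference of the class contrast, and Lyz1 and Mptx2 each 0.43 in that of the position contrast.

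Thinning each cell to 2000 UMIs left fewer counts by construction. Between tissues 1631 genes passed for all kept cells, 1837 for Muc2-high cells, with 3 of the 7 genes, and 1001 for other cells. In Lyz1/Defa24-high minus Muc2-high cells 231 passed. The class contrast gave 2077 in Si8, 989 in DC and 290 in the tissue difference. The position contrast gave 1064 in DC, 2517 in Si8 with 2 of the 7 genes, and 91 in the tissue difference with 1 of them. Mptx2 turned to -0.69 in the class contrast of Si8, to -0.052 in its position contrast and to 0.18 in the tissue difference of the position contrast, and Ang4 to -0.090 in the position contrast of Si8.

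Without a filter on low counts, 1410 genes passed in Lyz1/Defa24-high minus Muc2-high cells and 1818 in the tissue difference of the class contrast. Fitting these within-library contrasts with no replicate block, so that the library no longer paired the cells cut from it, gave 464 genes in Lyz1/Defa24-high minus Muc2-high cells. It gave 551 and none of the 7 genes (0) in the class contrast of DC, 3 of the 7 in that of Si8, and 218 and 0 in its tissue difference. It gave 985 and 0 in the position contrast of DC, 3 of the 7 in that of Si8, and 10 and 0 in its tissue difference. DESeq2 called 1576 genes in the position contrast of DC, and 536 with 1 of the 7 in its tissue difference, where Mptx2 was 0.022.

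With the Muc2 threshold doubled, 1253 genes passed in Lyz1/Defa24-high minus Muc2-high cells, 3 of the 7 in the position contrast of Si8 and 466 genes in the tissue difference of the position contrast. Ang4 was then 2.20 in the tissue difference of the class contrast (adjusted p = 0.0120 by edgeR), Lyz1 0.12 and Itln1 -0.096 in the position contrast of DC, and Lyz1 0.52 and Mptx2 0.013 in the tissue difference of the position contrast. With it halved, Lyz1 lost its call in the class contrast of DC (-0.80, adjusted p = 0.133 by edgeR), Itln1 was -1.01 in the tissue difference of the class contrast and Mptx2 0.49 in that of the position contrast. With the Lyz1 and Defa24 thresholds doubled, 489 genes passed in Lyz1/Defa24-high minus Muc2-high cells. Mptx2 was then -0.045 in the class contrast of Si8, Ang4 0.33 in its tissue difference and Lyz1 0.28 in the tissue difference of the position contrast. With the class set by Defa24 alone, 243 genes passed in Lyz1/Defa24-high minus Muc2-high cells, 3 of the 7 in the position contrast of Si8 and 1 in the tissue difference of the position contrast, where Nupr1 was -0.076 and Itln1 0.54 (adjusted p = 0.265 by edgeR). In the class contrast of Si8, Mptx2 then passed (0.77, adjusted p = 0.00196 by edgeR) and Habp2 did not (0.30, adjusted p = 0.604).

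Libraries of the 2 tissues share the numbers 1 and 2, and nothing ties equal numbers together. Their deviations from the tissue means correlated at 0.130 in all kept cells, 0.296 in Muc2-high cells and -0.062 in other cells. With the replicate number as a block, 3923, 5936 and 3512 genes passed between tissues in all kept, Muc2-high and other cells. Of the 7 genes, Ang4 (-1.93, adjusted p = 0.000145 by edgeR) and Nupr1 (1.27, adjusted p = 2.44e-05) then passed in Muc2-high cells, and no other call over the 7 genes changed.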
